A study of Mus musculus with 90 samples.

Results

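The genes described here are 9 that encode peptide hormones of the gut or proteins of the granules that store them: gastrin (Gast), ghrelin (Ghrl), cholecystokinin (Cck), gastric inhibitory polypeptide (Gip), secretin (Sct), neurotensin (Nts), proglucagon (Gcg), chromogranin A (Chga) and chromogranin B (Chgb). They were picked by name and looked up by Entrez Gene identifier among the 20414 genes of the deposited expression table, in which all 9 are listed. RNA was sequenced from 15 tissues of female C57BL/6 mice (C57BL/6J in the study's methods) without any genetic or drug intervention, aged 10 weeks by the labels, and the study's methods state a younger age. Mice were sorted by the cell types of stained vaginal smears into estrus, the phase around ovulation, and diestrus. The study describes diestrus as high in progesterone, with estrogen at its basal level. The libraries numbered 3 per tissue and phase and 90 in all. They came from the digestive tract (stomach, duodenum, liver), the brain (cerebrum, hypothalamus), the reproductive tract (ovary, uterus), the circulation (heart, aorta, vein), brown and white fat (BAT and WAT), kidney, spleen and skeletal muscle. All values are FPKM, that is fragments divided by transcript length and by the size of the library. A level is therefore a share of its library and depends on what else that library holds. Levels are set side by side between genes and between libraries with this limit, which matters most where libraries differ in makeup.

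Enteroendocrine cells are single hormone-making cells scattered through the lining of the stomach and intestine. They cut their hormones out of longer precursor proteins and pack them into dense granules with the chromogranins. Many of these hormones, though not all, are released when food reaches the gut. Several of the same genes are also used by neurons, in which cholecystokinin and neurotensin act as neuropeptides, and chromogranins fill the granules of neurons and of adrenal medulla cells as well.

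The coding stretches below show how closely some of the hormones are related and where each gene lies. All were read from GRCm38 at exons of GENCODE transcripts, 5′ to 3′ on the coding strand. Gastrin and cholecystokinin are shown first, since they share the end that their receptors bind: the capitals code Trp-Met-Asp-Phe, and 11 of the 12 bases in capitals are identical between the genes. The Gast stretch is in exon 3 of 3 on the plus strand (chr11:100336840-100336872) and the Cck stretch in exon 3 of 3 on the minus strand (chr9:121490104-121490136).
Gast: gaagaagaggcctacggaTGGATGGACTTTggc
Cck: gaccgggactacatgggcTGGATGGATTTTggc
The next set holds the starts of the hormones of the secretin and glucagon family, with the first 6 codons in capitals. Gcg carries both glucagon, in exon 3 of 6 (chr2:62478617-62478652), and glucagon-like peptide 1, in exon 4 of 6 (chr2:62476889-62476924), so that its level does not tell which hormone a cell makes. Gip is in exon 3 of 6 (chr11:96026667-96026702), and Sct in exon 2 of 4 (chr7:141278889-141278924). Gip is on the plus strand and the others on the minus strand.
Gcg, glucagon start: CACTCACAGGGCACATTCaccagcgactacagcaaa
Gcg, glucagon-like peptide start: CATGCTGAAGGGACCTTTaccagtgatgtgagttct
Gip: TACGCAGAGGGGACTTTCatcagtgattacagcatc
Sct: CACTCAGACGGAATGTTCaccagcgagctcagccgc
Ghrelin and neurotensin belong to neither family, and their stretches are given for comparison. The capitals mark the first 5 codons of ghrelin (exon 2 of 5, chr6:113719328-113719360, minus strand) and the last 6 codons of neurotensin, which hold the part that its receptors bind (exon 4 of 4, chr10:102482355-102482393, minus strand).
Ghrl: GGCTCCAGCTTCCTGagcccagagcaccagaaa
Nts: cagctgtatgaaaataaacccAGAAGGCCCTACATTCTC

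The study's methods state 1 approximate number of reads for all libraries alike, and the deposited values hold no read total of single libraries. The genes listed at 0 numbered 2404 to 4820 of 20414 in 89 libraries and 12048 in BAT estrus replicate 3. Genes of parietal cells, enterocytes and neurons marked the stomach, duodenum and brain libraries as labelled, with exceptions that touch the values below. Duodenum estrus replicate 1 carried genes of the gastric lining, with a summed level of the 7 genes for gastric pit and gland cells of 70020 FPKM against 0.74 to 29.4 FPKM in the other duodenum libraries. All brain libraries carried some as well, with sums of 56.8 to 77.8 FPKM in cerebrum and 63.25 to 180 FPKM in hypothalamus. The sums ran from 0.06 to 0.51 FPKM in ovary, but from 0.09 to 202 FPKM in heart and 5.12 to 121 FPKM in kidney. Stomach estrus replicates 1 and 3 had the most keratin of squamous forestomach lining (Krt13 at 2031 and 3256 FPKM against 8.82 to 393 FPKM in the other 4). Hypothalamus estrus replicate 2 contained pituitary transcripts (Prl at 21607 FPKM against 9.29 to 262 FPKM in the other 5), and the vein libraries held genes of noradrenergic neurons throughout. In whole tissue, fewer cells that express a gene and less RNA per cell cannot be told apart.

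**Figure D1:**
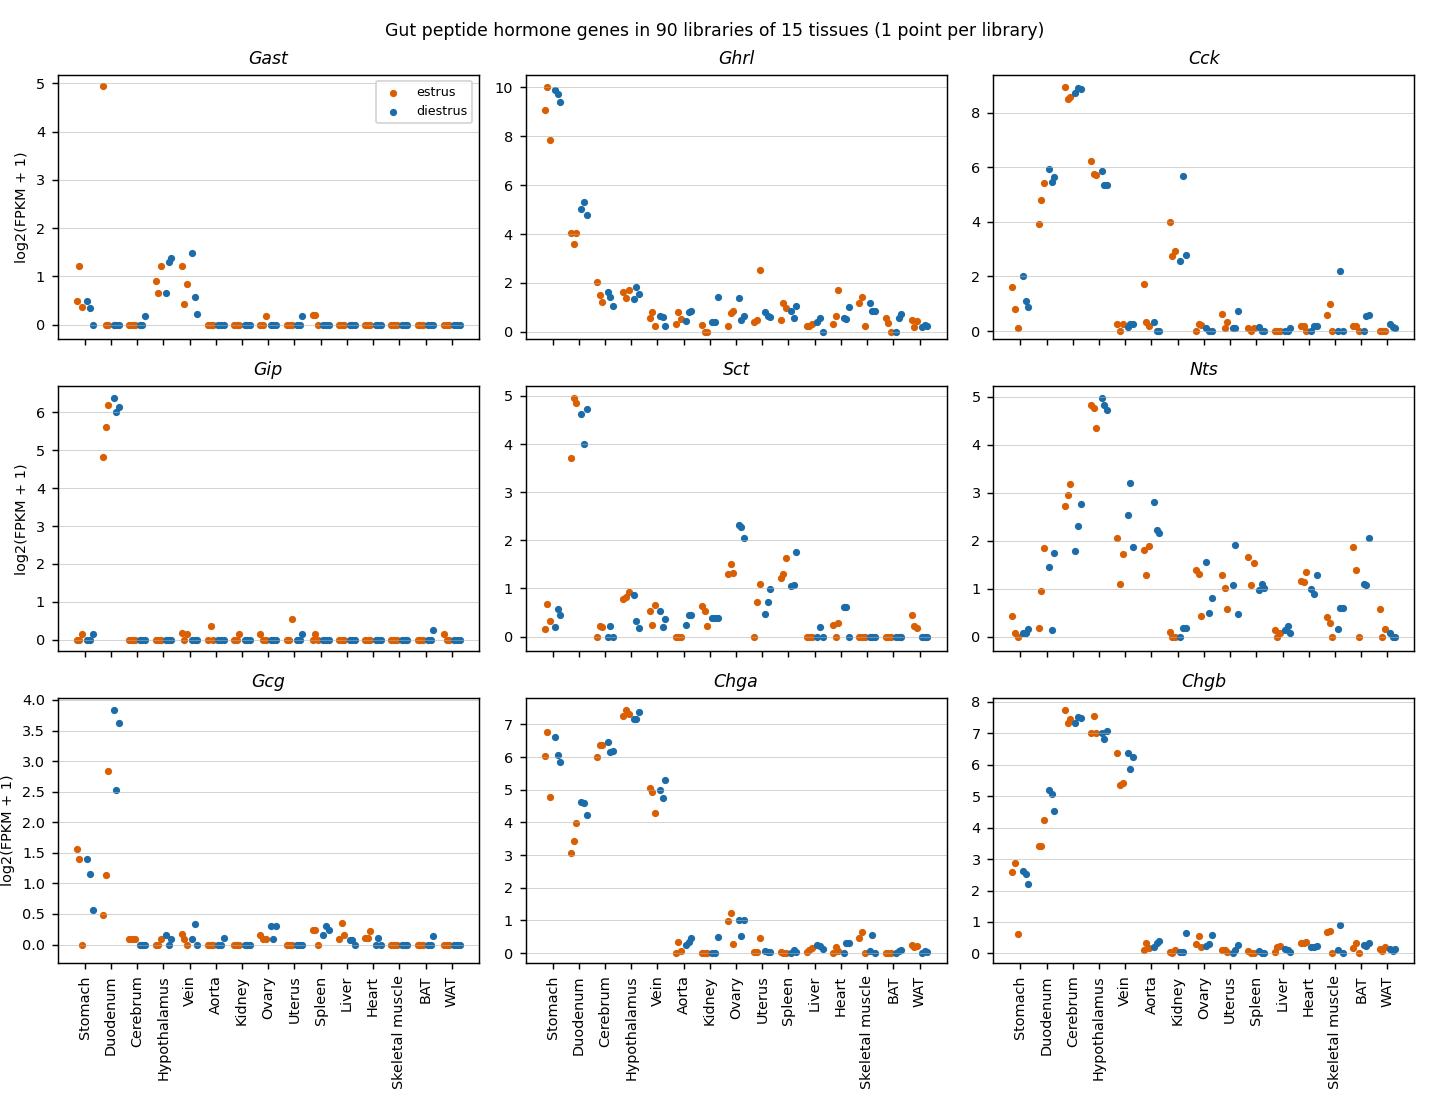
Level of each gene in all 90 libraries, as log2(FPKM + 1) on the vertical axis (scaled per panel) and tissue on the horizontal axis, with 1 point per library, orange for estrus and blue for diestrus. Gip is high in duodenum only, Ghrl is highest in stomach, Cck in cerebrum, and the single high Gast point is duodenum estrus replicate 1.

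Ghrelin, the hunger hormone of the stomach, was the most abundant of the 9 genes in any tissue. The estrus libraries of stomach read 543, 1036 and 231 FPKM and the diestrus libraries 942, 833 and 665 FPKM, a mean of 708 ± 295 FPKM (SD, n = 6). The duodenum followed with 23.2 ± 10.9 FPKM (SD, n = 6), and the ranges of the 6 libraries did not overlap between these tissues, with a ratio of means of 30.5. Hypothalamus and cerebrum came next, at 2.01 ± 0.41 and 1.86 ± 0.72 FPKM (SD, n = 6), and overlapped each other as well as uterus and skeletal muscle. The brain libraries also carried genes of the gastric lining, whose part in these low values was not tested. In uterus the mean of 1.22 FPKM was set by estrus replicate 3 at 4.76 FPKM, where the median was 0.53 FPKM.

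Gastrin, the hormone of gastric G cells that drives acid secretion, was near the lower end of what was detected, and 67 of the 90 libraries list it at 0. In stomach it read 0.41, 1.34 and 0.29 FPKM in estrus and 0.41, 0.27 and 0 FPKM in diestrus. In duodenum, estrus replicate 1 read 29.6 FPKM and the other 5 libraries are listed at 0, so the mean of 4.93 FPKM describes none of them and 66.7% of the Gast summed over all 90 libraries lay in that library. Hypothalamus held 1.06 ± 0.45 FPKM (SD, n = 6) with no library at 0, and vein 0.82 ± 0.64 FPKM (SD, n = 6).

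The duodenum library with Gast was also the library with gastric genes. It read 7108 FPKM of Gkn1 and 29618 FPKM of Tff1, proteins of the mucous pit cells, and 1142 FPKM of Muc6, a mucin of the glands, against at most 1.92, 20.7 and 0.87 FPKM in the other 5 libraries. The genes of acid-secreting parietal cells stayed near 0 in it, with Atp4a at 0.13 FPKM and Atp4b at 0.17 FPKM, whereas the stomach libraries held 371 to 2058 FPKM of Atp4a. Of the enterocyte genes, Fabp1 (1325 FPKM) and Apoa4 (912 FPKM) were the lowest of the 6 libraries. Their part in the level of Gast was not tested.

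**Figure D2:**
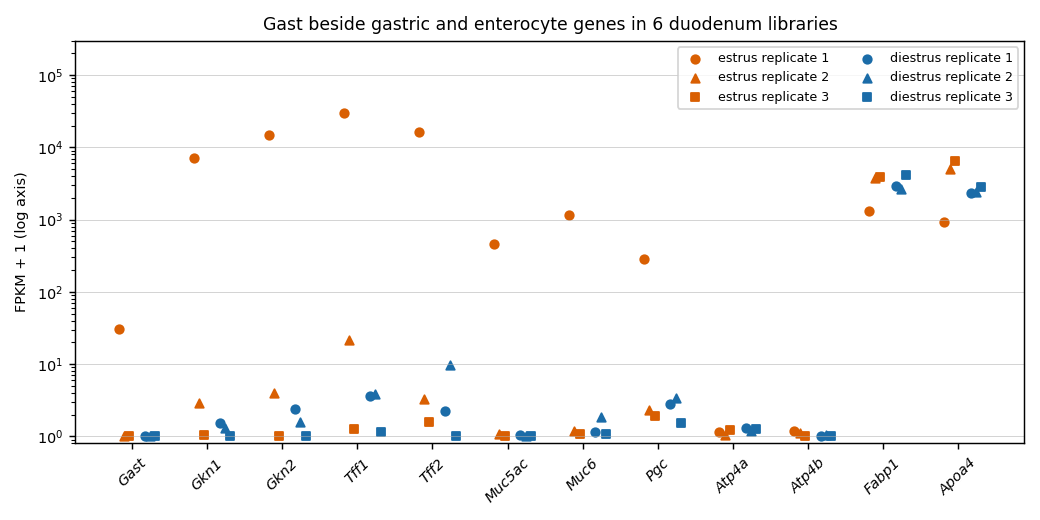
FPKM + 1 on a log axis for Gast, 7 genes of gastric pit and gland cells, 2 parietal cell genes and 2 enterocyte genes in the 6 duodenum libraries, with orange for estrus, blue for diestrus and the marker shape for the replicate. Estrus replicate 1 (orange circles) is high for Gast and for the gastric pit and gland genes, near 1 for Atp4a and Atp4b, and lowest for Fabp1 and Apoa4.

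The hormones of the upper intestine were found in duodenum and differed in how far they extended beyond it. Gip, which raises insulin release after a meal, was the most restricted. Its duodenum libraries read 27.4, 48.1 and 72.0 FPKM in estrus and 81.6, 63.3 and 69.6 FPKM in diestrus, and 72 of the 90 libraries list it at 0. No other tissue had a mean of 1 FPKM, and the stomach libraries reached at most 0.10 FPKM.

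Sct, which makes the pancreas and bile ducts release bicarbonate, read 12.1, 29.96 and 28.1 FPKM in the estrus libraries of duodenum and 23.8, 15.1 and 25.7 FPKM in the diestrus libraries. Ovary, at 2.64 ± 1.18 FPKM, and spleen, at 1.57 ± 0.55 FPKM (SD, n = 6), were the only other tissues with a mean of at least 1 FPKM, and overlapped each other but not the duodenum. Gcg was lower and varied more. It read 0.40, 1.2 and 6.15 FPKM in estrus and 13.3, 4.79 and 11.3 FPKM in diestrus in duodenum, and 0 to 1.94 FPKM in stomach. The 5 genes of pancreatic islet cells, which also express Gcg, summed to at most 0.82 FPKM in any duodenum library. The 7 genes of pancreatic acini summed to 47.2 FPKM in estrus replicate 1, the library with the lowest Gcg, and to 0.05 to 7.47 FPKM in the other 5, and their part in the levels was not tested.

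Cck, the hormone that empties the gallbladder and curbs appetite, was mainly a gene of the brain in these libraries. Cerebrum held 492, 358 and 380 FPKM in estrus and 421, 483 and 471 FPKM in diestrus, above every library of any other tissue. Hypothalamus (52.5 ± 12.8 FPKM) and duodenum (39.0 ± 16.0 FPKM, SD, n = 6) followed and overlapped. Kidney came next with libraries of 14.8, 5.66 and 6.63 FPKM in estrus and 4.93, 50.7 and 5.85 FPKM in diestrus. The mean of 14.8 FPKM in kidney is set by diestrus replicate 2, and the median is 6.24 FPKM.

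Nts, whose product slows gut motility and modulates dopamine neurons, was highest in hypothalamus with 27.7, 26.5 and 19.4 FPKM in estrus and 30.4, 27.3 and 25.5 FPKM in diestrus. Cerebrum (5.44 ± 2.00 FPKM), vein (3.71 ± 2.52 FPKM) and aorta (3.29 ± 1.53 FPKM, SD, n = 6) overlapped one after the other. The duodenum libraries ranged from 0.10 to 2.58 FPKM and the stomach libraries from 0 to 0.34 FPKM, so the gut libraries held little of this gene. It had the widest spread over tissues of the 9, with a mean of at least 1 FPKM in 10 of the 15.

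The chromogranins, which help to form the granules and store their content, were found in the brain, the gut and the vein. Chga stood at 156 ± 11.7 FPKM in hypothalamus, above the range of all other tissues, and at 76.0 ± 9.0 FPKM in cerebrum, 69.5 ± 29.1 FPKM in stomach, 29.2 ± 6.7 FPKM in vein and 16.0 ± 6.7 FPKM in duodenum (SD, n = 6). Neighbours in this order from cerebrum to duodenum overlapped. Chgb stood at 178 ± 19.2 FPKM in cerebrum and 136 ± 25.4 FPKM in hypothalamus, which overlapped, then at 63.1 ± 19.4 FPKM in vein, 21.3 ± 11.1 FPKM in duodenum and 4.20 ± 1.99 FPKM in stomach (SD, n = 6), each below the range of the tissue before. In the other 10 tissues neither gene had a mean of 1 FPKM.

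The balance of both chromogranins differed between tissues. In stomach, Chga was 13.0 to 18.8 times Chgb in 5 libraries and 49.4 times in estrus replicate 3, where Chgb was 0.53 FPKM. It was in duodenum 0.66 to 1.03 times, in hypothalamus 0.93 to 1.28 times, in vein 0.38 to 0.72 times and in cerebrum 0.30 to 0.54 times. The stomach libraries lay apart from all others in this ratio. Over the 90 libraries Pearson's r of log2(FPKM + 1) between the chromogranins was 0.92, a description that rests on the same tissues being high for both.

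**Figure D3:**
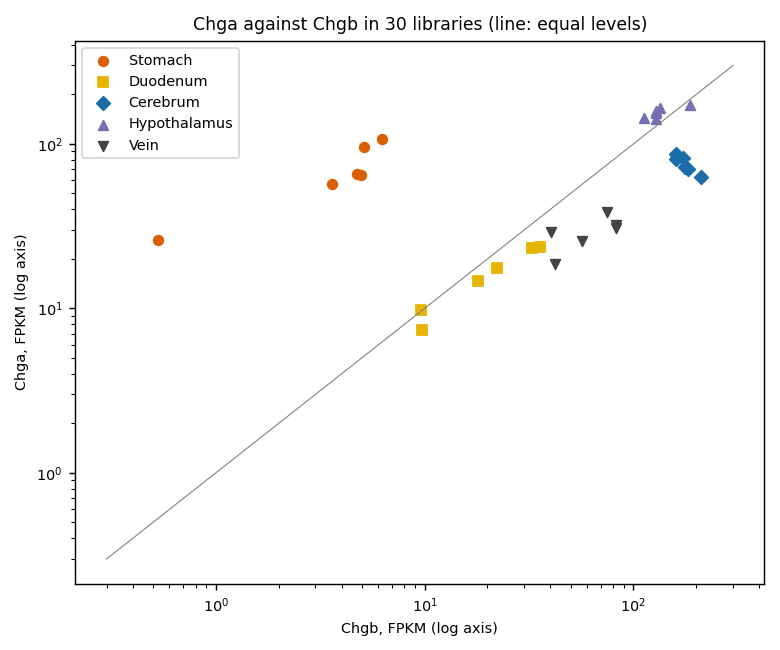
Chga against Chgb, both in FPKM on log axes, in the 30 libraries of stomach, duodenum, cerebrum, hypothalamus and vein, with the line marking equal levels. The 6 stomach libraries lie far above the line, 5 at ratios of 13.0 to 18.8 and estrus replicate 3 at 49.4, and the cerebrum and vein libraries lie below it.

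Since both chromogranins were high in the same tissues, 55 bases of each promoter are shown, from the RefSeq start sites of GRCm38.p6. The capitals mark TGACG, the core of the cyclic AMP response element, searched on both strands in windows from 250 bases before to 50 bases after the start. It lies 44 bases before the start in Chga (chr12:102554872-102554926) and 72 bases before the start in Chgb (chr2:132781545-132781599), both on the plus strand.
Chga promoter: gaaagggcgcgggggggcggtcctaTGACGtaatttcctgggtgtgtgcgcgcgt
Chgb promoter: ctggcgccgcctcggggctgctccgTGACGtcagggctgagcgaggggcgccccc
The core was present in 20.8% of 32851 such windows and in 4 of the 9 genes, namely Cck, Chga, Chgb and Nts. The complete palindrome TGACGTCA, which contains the core, was present in 1.79% of the windows and of the 9 genes in Chgb. The TATA sequence TATAAA was present in 13.6% of the windows and in Chga, Gast, Gcg and Sct. A gene was counted where any of its windows held the motif, while the percentages are over windows, so the counts and percentages are unlike measures. A match is a description of the letters and not of a bound site.

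Outside gut and brain, the vein libraries held the most Chga and Chgb. The mean of Nts was also highest there, at 3.71 FPKM, but its range overlapped that of aorta, where the mean was 3.29 FPKM. Genes for making noradrenaline were high in all 6, with Dbh at 337 to 745 FPKM and Th at 173 to 402 FPKM, while Pnmt, the enzyme of the adrenal medulla that makes adrenaline, stayed at 0 to 0.39 FPKM. The neuronal genes Snap25 (113 to 232 FPKM) and Stmn2 (150 to 324 FPKM) were present as well. Of the 5 neuron genes, Rbfox3 alone was low in vein, at 0.17 to 0.62 FPKM. The summed level of the 5 neuron genes ran from 353 to 767 FPKM in vein and from 3.66 to 11.5 FPKM in aorta, where the chromogranins were at most 0.37 FPKM. Vein estrus replicates 2 and 3 were lowest for Dbh, for Th and for Chgb (40.4 and 42.0 FPKM against 56.9 to 82.2 FPKM). For Chga, replicate 3 was the lowest at 18.6 FPKM, while replicate 2 at 29.2 FPKM lay within the 25.7 to 38.65 FPKM of the other 4. The part of neurons in the levels of the chromogranins was not tested.

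To compare the tissues, genes averaging 1 FPKM or more in the libraries compared were fitted as log2(FPKM + 1) with limma across the whole table, with the phase as a term. A gene was called at a log2 difference of at least 1 and a Benjamini-Hochberg adjusted p of at most 0.05. Differences on this scale understate the change of low genes. A gene that reached a mean of 1 FPKM in only 1 of the groups compared passed the filter through that group and had to differ. Its call adds nothing to its levels, and the reported genes of which this holds are named in each comparison.

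Duodenum and stomach used different hormones. Of all 12990 genes tested, 24.1% were called between these tissues. Gip (log2 difference 5.81 ± 0.21, SE, adjusted p = 1.52e-09), Cck (4.10 ± 0.31, adjusted p = 9.90e-07), Sct (4.08 ± 0.22, adjusted p = 4.76e-08), Chgb (2.08 ± 0.36, adjusted p = 0.000548) and Gcg (1.40 ± 0.49, adjusted p = 0.0340) were higher in duodenum. Of these, Gip and Sct passed the filter through duodenum alone. Ghrl fell by 4.85 ± 0.30 (adjusted p = 1.42e-07) and Chga by 2.03 ± 0.31 (adjusted p = 0.000230) from stomach to duodenum. Gast, which passed through duodenum estrus replicate 1, was not called (0.33 ± 0.73, adjusted p = 0.728), and Nts was too low to be tested. The Gcg call was the least firm. Its adjusted p was 0.0547 with a pseudocount of 0.1 and 0.0811 with the replicate number as a block, and without stomach estrus replicate 3 it was 0.0689. It was 0.0825 to 0.139 when estrus replicate 3 or any diestrus replicate of both tissues was left out.

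Between the brain regions, the neuropeptide genes moved in opposite directions. Of 13280 genes, 8.98% were called, and of the 5 hormone and granule genes tested, all with a mean of at least 1 FPKM in both regions, 2 were higher in hypothalamus and 1 was lower. Cck fell by 3.04 ± 0.14 (adjusted p = 2.31e-09) from cerebrum to hypothalamus, a ratio of means of 8.26 in favour of cerebrum. Nts was higher in hypothalamus by 2.13 ± 0.19 (adjusted p = 6.34e-07) and Chga by 1.03 ± 0.08 (adjusted p = 1.50e-07). The Chga difference lies at the limit of the call, and was 0.98 after quantile normalization and also without estrus replicate 1 of both regions, and just under 1 without diestrus replicate 3. The median of all genes was 0.17 in this comparison. Chgb differed by -0.39 ± 0.10 (adjusted p = 0.00369), less than the limit on the difference, and Ghrl by 0.10 ± 0.15 (adjusted p = 0.576).

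Set against cerebrum and hypothalamus together, stomach and duodenum differed in both directions, where 52.0% of 14578 genes were called. Ghrl (5.36 ± 0.20, adjusted p = 2.75e-17), Gip (2.95 ± 0.11, adjusted p = 3.18e-17), Sct (2.06 ± 0.13, adjusted p = 3.90e-13) and Gcg (1.66 ± 0.27, adjusted p = 6.47e-06) were higher in the gut. Cck fell by 4.09 ± 0.20 (adjusted p = 3.08e-15), Chgb by 4.0 ± 0.22 (adjusted p = 3.36e-14), Nts by 3.09 ± 0.19 (adjusted p = 2.32e-13) and Chga by 1.77 ± 0.18 (adjusted p = 3.14e-09) from brain to gut. Gip, Sct and Gcg passed the filter through the gut alone and Nts through the brain alone. Gast, which also passed through the gut alone, differed by 0.13 ± 0.40 (adjusted p = 0.757).

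Stomach and duodenum were also set against the other 11 tissues, where 26.4% of 14599 genes were called. Ghrl led with a log2 difference of 6.28 ± 0.14 (adjusted p = 6.97e-49), followed by Chga (4.37 ± 0.10, adjusted p = 3.47e-49), Gip (2.92 ± 0.06, adjusted p = 3.16e-52), Cck (2.63 ± 0.17, adjusted p = 1.65e-23), Chgb (2.54 ± 0.11, adjusted p = 8.14e-32) and Sct (1.96 ± 0.09, adjusted p = 5.32e-32). Ghrl, Gip and Sct passed the filter through stomach and duodenum alone, and for Gip and Sct the stomach mean was under 1 FPKM as well. The average of the 11 tissues hides single ones. Vein held 63.1 FPKM of Chgb against 21.3 FPKM in duodenum and 4.20 FPKM in stomach. Its mean of Chga was above that of duodenum (29.2 against 16.0 FPKM), and the median of Cck was higher in kidney than in stomach (6.24 against 0.99 FPKM). Nts differed by -0.36 ± 0.14 (adjusted p = 0.0165), under the limit on the difference. By the study, 3 mice per phase gave the samples of all 15 tissues, so libraries of one mouse enter these fits more than once. The labels do not say which libraries share a mouse, and the p-values do not allow for that sharing.

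**Figure D4:**
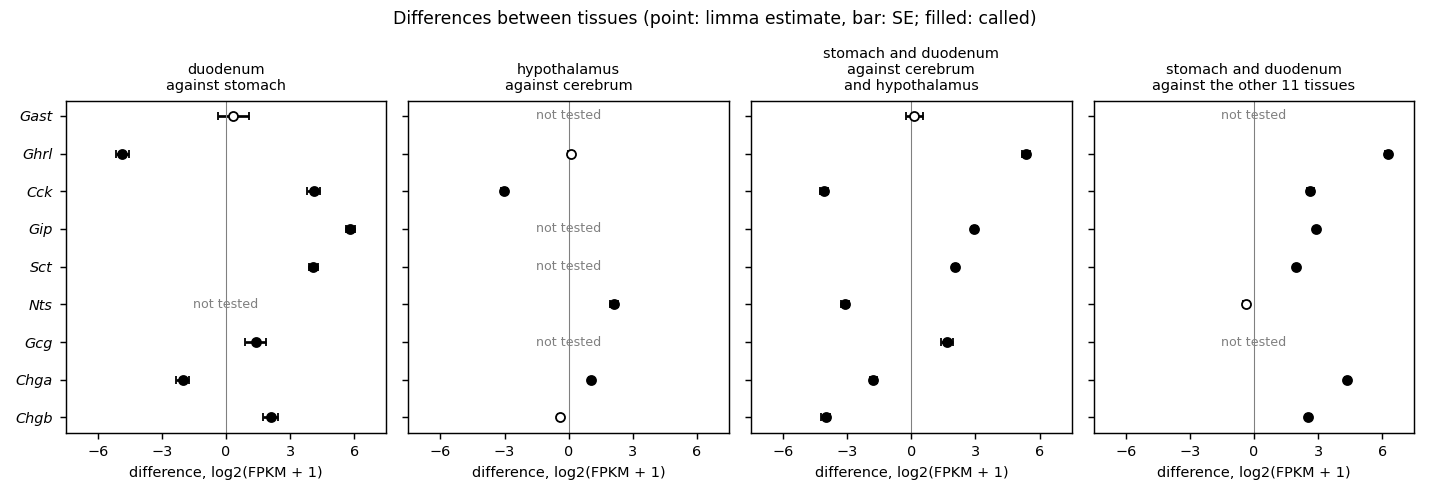
Log2 differences of the 9 genes in the 4 tissue comparisons, on the log2(FPKM + 1) scale, as the limma estimate (point) with its SE (bar), filled where called and open where not. Gip, Sct, Cck, Gcg and Chgb lie to the right in duodenum against stomach, and Cck, Chgb, Nts and Chga to the left in gut against brain.

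The machinery that cuts and packs these hormones was far more abundant in the brain than in the gut. All 9 genes of granules and processing were lower in stomach and duodenum than in cerebrum and hypothalamus, with a median log2 difference of -5.79 where that of all genes was -0.15 and 52.0% were called. Pcsk1, Pcsk2 and Vgf passed the filter through the brain alone. They are the convertases Pcsk1 (-3.19) and Pcsk2 (-5.79), the convertase inhibitor Pcsk1n (-7.06), the trimming enzyme Cpe (-4.73), the amidating enzyme Pam (-2.08) and the granins Scg2, Scg3, Scg5 and Vgf (-5.71 to -6.64). Cpe and Pam had the highest means of them in stomach and duodenum. Cpe read 11.45 to 44.7 FPKM in 4 stomach libraries and 156 and 97.2 FPKM in estrus replicates 1 and 3, those with the most Krt13, and 10.97 to 34.8 FPKM in duodenum. Pam read 13.1 to 50.2 FPKM in stomach, 4.66 to 7.02 FPKM in 5 duodenum libraries and 24.5 FPKM in estrus replicate 1, the library with gastric genes. In cerebrum Cpe reached a mean of 791 FPKM and in hypothalamus 737 FPKM. Between duodenum and stomach 2 of the 6 tested were called, beside 24.1% of all genes, Scg2 higher in duodenum (1.10) and Pam lower (-1.53). Both Scg2 (2.35) and Pam (1.04) were higher in hypothalamus than in cerebrum.

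The receptors for these hormones were called in both directions. Of all genes, 24.1% were called between duodenum and stomach, 52.0% between gut and brain and 8.98% between the brain regions. Sctr, the secretin receptor, was higher in the gut than in the brain (2.2) and lay in stomach rather than duodenum (log2 difference of duodenum to stomach -3.41), at 21.8 FPKM against 2.34 FPKM, and 11.5 FPKM of it stood in duodenum estrus replicate 1 where the other duodenum libraries read 0.17 to 0.74 FPKM. The cholecystokinin receptors Cckar (-3.44) and Cckbr (-2.03) were also lower in duodenum than in stomach, and both passed the filter through stomach alone. The neurotensin receptors Ntsr1 (-2.37) and Ntsr2 (-6.49), the sorting receptor Sort1 (-1.41) and Cckbr (-2.92) were lower in gut than in brain. In that comparison Ntsr1 and Ntsr2 passed the filter through the brain alone, and Sctr through the gut alone. Hypothalamus exceeded cerebrum for the ghrelin receptor Ghsr (1.44) and for Cckar (1.98), and both Ghsr and Cckar passed the filter through hypothalamus alone. Hypothalamus was below cerebrum for Cckbr (-1.86) and Sort1 (-1.38).

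Of the 10 transcription factors of endocrine cells, 2 were high enough to be tested between duodenum and stomach, each through 1 tissue alone. Pdx1, which patterns the upper intestine, was higher in duodenum (4.56) and Isl1 lower (-1.96). Pdx1 stood at 41.7 FPKM in duodenum and at 0.72 FPKM in stomach. Against the brain, Pdx1 was higher in the gut (2.94) and Neurod1, Nkx2-2, Insm1 and Pax6 were lower (-1.45 to -2.13), each of them again having passed the filter through 1 side alone. Hypothalamus exceeded cerebrum for Isl1 (2.92) and Nkx2-2 (1.31) and was below it for Neurod1 (-1.57), with Isl1 having passed the filter through hypothalamus alone.

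Somatostatin (Sst), which restrains the release of most gut hormones, was the most abundant of the other gut peptides in all 4 tissues, at 200 ± 97.2 FPKM in stomach, 50.3 ± 20.3 FPKM in duodenum, 394 ± 72.8 FPKM in cerebrum and 323 ± 30.1 FPKM in hypothalamus (SD, n = 6). It was lower in duodenum than in stomach (-1.90), while Pyy (1.26) and Vip (1.90) were higher. Pyy passed the filter through duodenum alone. Of all genes, 24.1% were called between these tissues and 52.0% between gut and brain. Sst, Vip, Tac1, Gal and Grp were lower in gut than in brain (-1.60 to -3.62) and Nmu was higher (1.60). In stomach, Nmu read 23.65 and 37.2 FPKM in estrus replicates 1 and 3, those with the most Krt13, and 0.07 to 4.49 FPKM in the others. Of the genes for gut amines, duodenum exceeded stomach for Ddc (5.09), which makes serotonin and dopamine, and for the vesicle transporter Slc18a1 (1.43). It was below stomach for Slc18a2 (-1.41) and the histamine enzyme Hdc (-1.80). Slc18a1 passed the filter through duodenum alone and Hdc through stomach alone. Tph1, the serotonin enzyme of the gut, was higher in gut than in brain (1.66). Both Tph1 and Nmu passed the filter through the gut alone in that comparison.

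The genes with the most similar profile over the 90 libraries, by Pearson's r of log2(FPKM + 1) among the 15226 genes averaging 1 FPKM or more, were mostly high in the same tissues as the hormone gene. For Gip they were Cdx2 (r = 0.998), Tmem236 and Clca4b (both r = 0.997), all highest in duodenum, and for Ghrl they were Mcpt1, Ern2 and Duoxa2 (r = 0.956 to 0.961), all highest in stomach. For Chgb they were Vstm2l, Scg2 and Pcsk1 (r = 0.962 to 0.969), all highest in hypothalamus where Chgb was highest in cerebrum, and for Chga Ptprn2, Atp8a2 and Aplp1 (r = 0.932 to 0.963), of which Ptprn2 and Aplp1 were highest in cerebrum and Atp8a2, like Chga, in hypothalamus. Sowaha, Sertm1 and Cx3cl1 came closest to Cck (r = 0.888 to 0.921), Mfsd4b2, Ms4a10 and Ifit1bl2 to Sct (r = 0.917 to 0.930), Ceacam10, Ms4a12 and Dmbt1 to Gcg (r = 0.888 to 0.894) and Cacna2d2, Elac1 and Rab9b to Nts (r = 0.849 to 0.866). Gast had the weakest neighbours (2310057J18Rik, Slc5a5 and Ngb, r = 0.588 to 0.801), which were highest in duodenum, stomach and hypothalamus in turn. These values describe which tissues are high, since libraries of one tissue share their profile.

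The phases were then compared within each tissue, 3 libraries against 3, for which an exact permutation test of a single gene cannot give a p below 0.1. Of the 135 pairs of gene and tissue, 39 had a mean of at least 1 FPKM and were tested, and limma called none of them, where 0.00108% of 185470 tests over all genes and 15 tissues were called. Of the 39 pairs, 10 had an unadjusted p under 0.05, against 7.84% of all tests, and the lowest adjusted p was 0.368. In 6 pairs the 3 estrus values lay below the 3 diestrus values without overlap, against 9.31% of all tests, and in none did they lie above, against 5.66%.

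Duodenum held 4 of these 6 pairs. Ghrl read 15.4, 11.1 and 15.5 FPKM in estrus and 31.5, 39.0 and 26.8 FPKM in diestrus. Chgb read 9.71, 9.56 and 18.1 FPKM in estrus and 35.5, 32.8 and 22.3 FPKM in diestrus. Every estrus library was below every diestrus library for both genes, and the log2 fold changes of estrus against diestrus were -1.15 ± 0.21 for Ghrl and -1.24 ± 0.30 for Chgb (SE, adjusted p = 0.368 for each by limma). Chga read 7.43, 9.84 and 14.8 FPKM in estrus and 23.5, 23.3 and 17.6 FPKM in diestrus (-0.98 ± 0.26). Cck read 14.3, 27.2 and 42.1 FPKM in estrus and 59.4, 42.4 and 48.8 FPKM in diestrus (-0.94 ± 0.37, adjusted p = 0.368 for both by limma). The Cck phases were separated by less than 1 FPKM, between estrus replicate 3 and diestrus replicate 2.

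Such a separation was common in this tissue, since 22.1% of the 12410 genes tested in duodenum were lower in estrus without overlap. An unadjusted p under 0.05 was reached by 5 of the 9 genes, the 4 above and Gcg (-1.84 ± 0.64, adjusted p = 0.368), and by 13.5% of all genes of duodenum. The median log2 fold change of the 9 genes was -0.94, where that of all genes was -0.16, and relative to that shift 6 of the 9 were still lower in estrus. Gip differed by -0.63 ± 0.34 (adjusted p = 0.418) and Sct by 0.05 ± 0.38 (adjusted p = 0.960), the latter above the shift of all genes. Quantile normalization brought the median of all genes to -0.03 and left Ghrl at -0.997 and Chgb at -1.12.

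Duodenum estrus replicate 1, the library with gastric genes, was the lowest of the 6 for Cck, Gip, Sct, Gcg and Chga but not for Ghrl or Chgb. Leaving out an estrus library cannot create overlap for the same 4 genes, so their separation without it tells nothing new. The share of all genes tested that lay below diestrus without overlap was then 46.6%. Without this library the fold changes were -1.23 for Ghrl, -1.11 for Chgb, -0.77 for Chga, -0.54 for Cck and -1.34 for Gcg. The summed enterocyte genes ran from 4892 to 18435 FPKM in estrus and from 8577 to 11850 FPKM in diestrus, and single genes of the list went both ways. Estrus replicates 2 and 3 were above every diestrus library for Apoa4 (4999 and 6408 FPKM against 2358 to 2833 FPKM), Fabp2 and Vil1. They were below every diestrus library for Cdx1 (30.01 and 62.8 FPKM against 66.05 to 83.8 FPKM) and Cdx2 (43.8 and 55.2 FPKM against 57.8 to 82.9 FPKM), and overlapped diestrus for Alpi and Fabp1. The part of these differences in makeup was not tested. When all 90 libraries were fitted together, which lends duodenum the spread of the other tissues, 4 of the 9 genes were called in duodenum, where 4.38% of all 12410 genes tested were called. They were Ghrl (adjusted p = 0.0161), Chgb (adjusted p = 0.000579) and Gcg (adjusted p = 3.93e-07) lower in estrus and Gast (adjusted p = 0.00656) higher, the last on estrus replicate 1 alone.

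**Figure D5:**
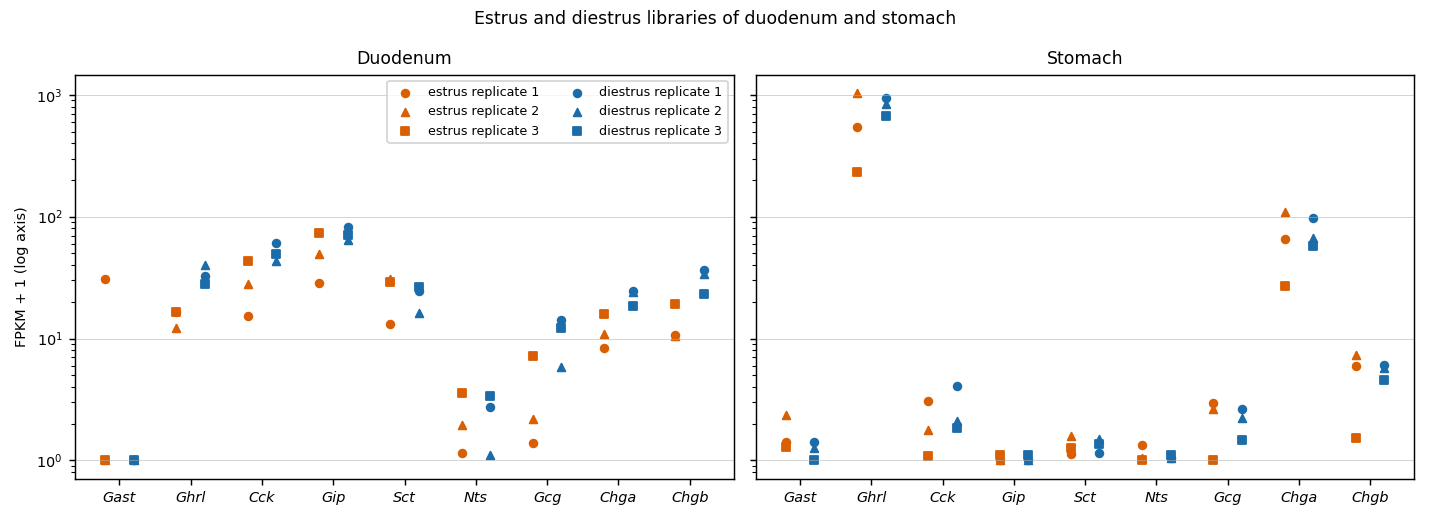
FPKM + 1 on a log axis for the 9 genes in the estrus (orange) and diestrus (blue) libraries of duodenum and stomach, with the marker shape for the replicate. In duodenum the orange points of Ghrl, Cck, Chga and Chgb lie below the blue ones, and in stomach the phases overlap for Ghrl and Chga, with estrus replicate 3 (orange square) lowest.

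In stomach the phases overlapped for each gene tested. Ghrl had a mean of 603 ± 406 FPKM in estrus and 813 ± 140 FPKM in diestrus (SD, n = 3, log2 fold change -0.67 ± 0.54, adjusted p = 0.702 by limma), and Chga of 66.1 ± 40.8 FPKM and 72.9 ± 20.5 FPKM (-0.32 ± 0.52, adjusted p = 0.821 by limma). Estrus replicate 3 was the lowest for Ghrl, Chga and Chgb and also for Sst (48.9 FPKM against 166 to 314 FPKM in the others) and for the parietal gene Atp4b (791 FPKM against 2322 to 4520 FPKM), and it had the most Krt13. Without it, the fold changes of Chga, Chgb and Gcg changed sign. The part of forestomach lining in these values was not tested. The difference between the phase effects of duodenum and stomach was tested as an interaction, which called none of the 8 genes and 0.0077% of all 12990, with Gcg at -1.79 ± 0.87 (adjusted p = 0.458) the farthest from 0.

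In the brain the phases were close. Cck had 410 ± 72.1 FPKM in estrus and 458 ± 33.0 FPKM in diestrus in cerebrum (SD, n = 3), and 59.3 ± 13.1 and 45.8 ± 10.1 FPKM in hypothalamus, with log2 fold changes of -0.17 ± 0.13 and 0.37 ± 0.18 (adjusted p = 1.00 and 0.418 by limma). Nts in cerebrum had 6.81 ± 1.27 FPKM in estrus and 4.07 ± 1.67 FPKM in diestrus (0.67 ± 0.25, adjusted p = 1.00 by limma). For the chromogranins the fold changes in both regions lay between -0.03 and 0.22. Chgb was highest in hypothalamus estrus replicate 2 (186 FPKM against 112 to 134 FPKM), the library with pituitary transcripts, whose part in that value was not tested. The interaction of phase and region called none of the 5 genes tested, and 0.0% of 13280.

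Elsewhere, Sct in ovary and Nts in aorta made up the other 2 pairs without overlap. Sct in ovary read 1.45, 1.86 and 1.5 FPKM in estrus and 4.02, 3.87 and 3.13 FPKM in diestrus, a log2 fold change of -0.84 ± 0.16 (adjusted p = 0.643 by limma), where 5.58% of the 13587 genes tested in ovary were lower in estrus without overlap. Nts in aorta read 2.49, 1.45 and 2.71 FPKM in estrus and 5.97, 3.65 and 3.46 FPKM in diestrus (-0.73 ± 0.26, adjusted p = 0.933 by limma). In vein, Nts (-0.92 ± 0.38), Chgb (-0.44 ± 0.29) and Chga (-0.26 ± 0.23) overlapped between the phases (adjusted p = 0.412, 0.497 and 0.604 by limma).

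The wider lists gave no call by phase in these tissues either. In duodenum, stomach, cerebrum and hypothalamus none of the granule, receptor, transcription factor, peptide or amine genes tested was called. In duodenum, the median log2 fold change was -0.33 for the 7 granule and processing genes tested, 6 of them negative, and -0.83 for the 6 other gut peptides, 4 of them negative, beside -0.16 for all genes. The summed level of the other gut peptides ran from 41.1 to 70.8 FPKM in estrus and from 78.04 to 88.3 FPKM in diestrus, without overlap. Of all genes tested in duodenum, 22.1% were lower in estrus without overlap. Sst had the highest level of the list in each library, and Sst itself overlapped between the phases. It read 60.1 FPKM in estrus replicate 3 and 54.8 FPKM in diestrus replicate 2. In estrus replicate 1, the lowest sum, Sst read 16.6 FPKM.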

How the data were processed

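RNA of 15 tissues from mice in estrus and diestrus was analysed as FPKM deposited by the authors, who cleaned the reads with SOAPnuke, mapped them to GRCm38.p5 by Bowtie2 (2.2.5) and estimated abundance with RSEM (1.2.8). Read counts and totals were not used here, so the count test of the study was replaced by limma 3.58.1 in R 4.3.3 (lmFit and eBayes with an intensity trend) on log2(FPKM + 1), over genes averaging 1 FPKM or more in the libraries of the fit, with two-sided p-values adjusted by Benjamini-Hochberg over all genes tested. The fits were tested on simulated data. Tissue, phase and replicate number came from the labels. Tissue comparisons had the phase as a term. BAT estrus replicate 3 listed the most genes at 0, and no library was left out.

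The members and gene lists were chosen with earlier results of these data known. Named genes were the 9 members, the called genes and the 2 most abundant genes of each list, and the 3 genes with the highest r to each member. Some genes of the lists are not reported here. Genes of cell types were named for libraries that stood apart. Same-numbered libraries did not deviate together in every pair of any tissue, with correlations of -0.57 to 0.47 between the phases, so the numbers were not used as pairs. Between tissues the correlations were -0.10 to 0.22, which cannot tell whether same-numbered libraries share a mouse. No 2 libraries held identical values. Python 3.11.15 with pandas 2.3.3, Biopython 1.88 and matplotlib 3.10.9 was used for summaries, sequences and plots. Sequences came from GRCm38 with GENCODE annotation and from RefSeq for promoters. Alternatives covered the pseudocount, the filter, quantile normalization, 1 fit of all libraries, the replicate block and libraries left out.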

Additional observations from a re-analysis of the deposited data

Results flagged for a closer look

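Over 39 groups of 6 libraries with a mean of at least 1 FPKM, 4 held a library whose gap to its nearest neighbour took up most of the range of the group by Dixon's limit. Chance alone flags about 1 in 20 groups of normally distributed values. That rate is no measure for these groups, which were chosen by their mean FPKM. Gast in duodenum and Ghrl in uterus reached that mean only through the flagged library. Gast in duodenum estrus replicate 1 was 29.6 FPKM where the other 5 libraries are listed at 0, and the same library had Gkn1 at 7108 FPKM. Cck in kidney diestrus replicate 2 was 50.7 FPKM, and the other 5 kidney libraries lay between 4.93 and 14.8 FPKM. Ghrl in uterus estrus replicate 3 was 4.76 FPKM beside a median of 0.53 FPKM. Chgb in hypothalamus estrus replicate 2 was 186 FPKM, and Gh in that library was 9200 FPKM. The part of other tissue in these values was not tested.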

How the results depend on the processing

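The tissue differences kept their direction and their side of the limits for every called gene of the 9 but Gcg in duodenum against stomach and Chga in hypothalamus against cerebrum, whose values are given above. The calls by phase depended on how the spread was estimated. Over the 15 tissues 2 genes were called by phase, 1 without the filter on low values and 3093, 4 of them among the 9 genes, in 1 fit of all libraries. Leaving out 1 replicate number and phase at a time gave 1 to 99 called genes, none of the 9 among them, with 99 without estrus replicate 1. The interaction of phase with stomach and duodenum called 1 gene, 2 after quantile normalization, 662 in the fit of all libraries, with Gcg the member called, and 0 to 8 without single replicates, with 8 without duodenum estrus replicate 1. The interaction with the brain regions called 0, and 3 in the fit of all libraries.

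With the replicate number as a block, although the labels do not say that the numbers pair libraries, 5 genes were called by phase, none of them a member, and 0 in the gut interaction. The block ended the Gcg call between duodenum and stomach (1.40, adjusted p = 0.0811) and no other call of the 9 genes.

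Differences that changed sign were small or rested on 1 library, and none was called. With a pseudocount of 0.1, Gast was at -0.70 in duodenum against stomach and at -0.11 in gut against brain, Ghrl at 0.0054 by phase in hypothalamus and Cck at 0.15 in the gut interaction. After quantile normalization, Ghrl was at -0.14 in hypothalamus against cerebrum and Nts at 0.21 by phase in BAT. Without single libraries, the phase differences ran in stomach from -0.77 to 0.23 for Chga, -0.85 to 0.27 for Chgb and -0.29 to 0.44 for Gcg, in duodenum from -0.18 to 0.45 for Sct and -0.60 to 0.29 for Nts, in cerebrum from -0.027 to 0.39 for Ghrl, -0.10 to 0.091 for Chga and -0.064 to 0.14 for Chgb, in hypothalamus from -0.12 to 0.14 for Ghrl, in kidney from -1.02 to 0.54 for Cck and in BAT from -0.72 to 0.22 for Nts. The interactions ran from -1.13 to 0.18 for Ghrl, -1.18 to 0.31 for Cck and -0.24 to 0.46 for Sct in the gut and from -0.46 to 0.0045 for Ghrl, -0.0028 to 0.24 for Chga and -0.10 to 0.37 for Chgb in the brain. The levels moved by less than 1 SD with the median or without single libraries. Leaving out the libraries of duodenum, stomach and hypothalamus that stood apart was chosen after the values were seen. The depth of single libraries was not given, genes with a mean under 1 FPKM were not tested, and the cause of these changes was not tested.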
